A study of Mus musculus with 8 samples.

Results

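This account concerns the killer cell lectin-like receptor genes Klrd1, Klrc1, Klrk1, Klrg1, Klrb1c and Klre1 and the natural cytotoxicity receptor gene Ncr1 in cultured mouse CD4 T cells. The members were named by symbol and found through the array annotation. Of the 7 listed genes, 6 had a probe set that names no other gene, giving 7 probe sets among 45101 on the array and 6 genes among 18193 tested. Klrb1c, which encodes NK1.1, shared its probe set with Klrb1b and was not analysed here. The genes were chosen by earlier results of these data, in which receptors of the family stood high in RORγt-deficient cells and in digoxin-treated wildtype cells against the DMSO-treated wildtype. Member values in these 2 comparisons are therefore a description, without a test.

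Lectin-like receptors of this family are type II membrane proteins, most of them encoded in the NK gene complex. They tune the activation of natural killer (NK) cells and of some T cells. CD94, the product of Klrd1, pairs with NKG2A, the product of Klrc1, to form an inhibitory receptor for the non-classical MHC molecule Qa-1. NKG2D, the product of Klrk1, is an activating receptor for stress-induced ligands and signals through the adaptors DAP10 and DAP12. These receptors are hallmarks of NK cells and are also known on activated CD8 T cells and on some activated CD4 T cells. Ncr1 encodes NKp46, an immunoglobulin-like receptor that marks NK cells and some innate lymphoid cells.

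The cells were naive CD4 T cells of C57BL/6 mice, isolated by sorting, stimulated through CD3 and CD28 and cultured under Th17 conditions for 48 h. Wildtype cells received DMSO, the vehicle, or digoxin, and so did cells deficient in RORγt, giving 4 groups of 2 arrays and 8 arrays in all. RORγt is the transcription factor on which Th17 cells depend. Digoxin is a plant steroid that blocks the sodium pump. The dose of digoxin, the allele behind the deficiency and the age of the mice are not given in the sources used here, and every group shares the strain, the stimulus and the culture. Sample titles name biological replicates but no animals. A p-value here therefore reflects only the spread between arrays labelled as biological replicates. Whether these came from separate animals is not stated.

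Every value is a log2 intensity minus the mean of the wildtype DMSO arrays of the same probe set, so wildtype DMSO stands at 0 and no absolute level is left. The binary precision of the deposited numbers still showed in which range the lowest of a probe set's 8 levels lay. The CD4 T cell markers lay at 8 or above on that log2 scale for 7 of 7 measured genes, among them Cd3e, Cd3g and Cd4. Klrd1, Klrc1, Klrk1, Klrg1 and Klre1 lay between 4 and 8, a range shared with 47.2% of all genes. Ncr1 lay between 2 and 4, a range shared with 31.3% of all genes, and for 1.36% of genes no range could be read. In RNA of a whole culture, a change in the number of cells that carry a transcript cannot be told apart from a change in the amount per cell.

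Klrd1, Klrk1, Klrc1 and Klre1 are neighbours in the NK gene complex on mouse chromosome 6, in the order Klre1, Klrd1, Klrk1, Klrc3, Klrc2 and Klrc1. The RefSeq promoter table (GRCm38.p6) had entries for 5 of the 7 listed genes, and none for Klrd1 and Klrg1. Sequences upstream of the annotated start are shown for Klrk1 and Klrc1, which stood high together, for Klre1, which followed another pattern, and for Ncr1, which stayed near 0. Each runs 5′ to 3′ on the strand of the gene, at chr6:129623904-129624114 (minus strand) for Klrk1, chr6:129678974-129679223 (minus) for Klrc1, chr6:129577963-129578212 (plus) for Klre1 and chr7:4337465-4337714 (plus) for Ncr1. Capitals mark matches to the motifs searched. The starts of Klrc1 and Klre1 lie inside the span of longer annotated transcripts, and the 39 bases of the Klrk1 window nearest to its start, which an outer transcript covers, are left out.
Klrk1: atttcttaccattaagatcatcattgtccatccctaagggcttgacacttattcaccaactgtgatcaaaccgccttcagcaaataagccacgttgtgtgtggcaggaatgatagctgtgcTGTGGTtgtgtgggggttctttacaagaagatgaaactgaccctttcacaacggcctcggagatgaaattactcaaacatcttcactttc
Klrc1: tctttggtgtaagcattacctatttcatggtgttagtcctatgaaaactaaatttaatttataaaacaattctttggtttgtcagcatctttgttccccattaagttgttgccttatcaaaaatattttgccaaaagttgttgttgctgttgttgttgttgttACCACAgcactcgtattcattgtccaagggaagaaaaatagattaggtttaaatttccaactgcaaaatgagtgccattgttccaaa
Klre1: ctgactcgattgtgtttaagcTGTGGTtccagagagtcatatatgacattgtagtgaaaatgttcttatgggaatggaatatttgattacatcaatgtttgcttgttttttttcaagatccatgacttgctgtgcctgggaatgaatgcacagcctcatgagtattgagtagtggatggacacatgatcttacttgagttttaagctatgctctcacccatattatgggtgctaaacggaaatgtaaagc
Ncr1: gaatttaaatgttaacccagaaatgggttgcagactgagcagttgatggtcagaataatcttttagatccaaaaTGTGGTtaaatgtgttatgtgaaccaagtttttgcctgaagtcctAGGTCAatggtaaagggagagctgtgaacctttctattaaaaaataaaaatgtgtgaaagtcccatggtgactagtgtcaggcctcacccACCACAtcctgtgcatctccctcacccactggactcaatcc

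The motifs were AGGTCA, the core bound by ROR and other nuclear receptors, AGGTGT, a core of T-box factors, TGTGGT, the core of Runx factors, TGANTCA, the AP-1 motif, and TTCNNNGAA, the STAT motif. Both strands of the 250 bases before each start were searched, and no motif shared its letters with another in these windows. The Runx core was present upstream of Klrk1, 129 bases before the start, of Klrc1, 87 bases before it on the other strand, and of Klre1, 229 bases before it. The table's other entry for Klre1, with a start farther downstream, held none of the motifs. The Runx core was present at 2 places upstream of Ncr1, 176 and 41 bases before the start, and 14.0% of the 32851 promoter windows of the table held it. The ROR core was found among these 4 windows only upstream of Ncr1, 131 bases before the start, and it too was present in 14.0% of all windows. The T-box core (11.8% of all windows), the AP-1 motif (6.75%) and the STAT motif (7.02%) had no match in the 4 windows. A match is a description of letters and not evidence of binding.

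Klrd1 was higher on every array outside the wildtype DMSO group. In wildtype cells it read -0.06 and 0.06 with DMSO and 1.36 and 1.36 with digoxin, and in RORγt-deficient cells 1.46 and 1.29 with DMSO and 1.58 and 1.63 with digoxin. The wildtype DMSO arrays stood apart from all others, the wildtype digoxin values lay inside the range of the RORγt-deficient DMSO values, and the cells with both deficiency and drug stood highest. The difference from wildtype DMSO was 1.38 ± 0.11 (SE, n = 2 arrays per group) for the deficiency and 1.36 ± 0.11 for digoxin, which is 2.60-fold and 2.57-fold.

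Klrk1, which encodes NKG2D, was likewise above wildtype DMSO on every other array. Wildtype cells gave -0.12 and 0.12 with DMSO and 1.28 and 0.77 with digoxin, and RORγt-deficient cells gave 0.99 and 1.13 with DMSO and 1.35 and 1.28 with digoxin. The wildtype digoxin arrays were the farthest apart, and their range enclosed both RORγt-deficient DMSO arrays. The difference from wildtype DMSO was 1.06 ± 0.16 (2.08-fold) for the deficiency and 1.03 ± 0.16 (2.04-fold) for digoxin.

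Klrc1, the NKG2A partner of CD94, was measured by 2 probe sets. The one used for the gene gave -0.05 and 0.05 with DMSO and 1.08 and 0.48 with digoxin in wildtype cells, and 1.10 and 0.82 with DMSO and 0.95 and 0.86 with digoxin in RORγt-deficient cells. All 6 other arrays lay above wildtype DMSO, and the 3 other groups overlapped. The differences from wildtype DMSO were 0.96 ± 0.18 for the deficiency and 0.78 ± 0.18 for digoxin. The other probe set gave -0.20 and 0.20, then 0.81 and 0.76, then 0.93 and 0.81, and 0.84 and 0.94 in the same order of groups. Its differences, 0.87 ± 0.14 for the deficiency and 0.79 ± 0.14 for digoxin, lay within the standard errors of the first. The wide gap between the wildtype digoxin arrays was seen in the first probe set and not in the second.

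Klre1 encodes NKG2I, which pairs with other lectin-like receptors in NK cells, and it was higher with digoxin in both genotypes. With DMSO it read 0.05 and -0.05 in wildtype cells and 0.18 and 0.20 in RORγt-deficient cells, and with digoxin 0.48 and 0.49 in wildtype cells and 0.53 and 0.69 in RORγt-deficient cells. The 4 digoxin arrays lay above the 4 DMSO arrays. The difference from wildtype DMSO was 0.19 ± 0.10 for the deficiency and 0.48 ± 0.10 for digoxin.

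Klrg1, an inhibitory receptor for cadherins that marks terminally differentiated lymphocytes, did not separate the groups. Wildtype arrays read -0.05 and 0.05 with DMSO and -0.21 and 0.14 with digoxin, and RORγt-deficient arrays -0.03 and 0.29 with DMSO and -0.17 and 0.12 with digoxin. Every group overlapped wildtype DMSO. The differences were 0.13 ± 0.16 for the deficiency and -0.03 ± 0.16 for digoxin.

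Ncr1 overlapped as well, with wildtype arrays at 0.00 for DMSO and at -0.04 and 0.24 for digoxin, and RORγt-deficient DMSO arrays at -0.14 and 0.14. In RORγt-deficient cells with digoxin it stood at 0.03 and 0.26, both above wildtype DMSO. The differences were 0.00 ± 0.14 for the deficiency and 0.10 ± 0.14 for digoxin. In each of the 3 other groups the array numbered 2 was the higher for both Klrg1 and Ncr1.

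**Figure D1:**
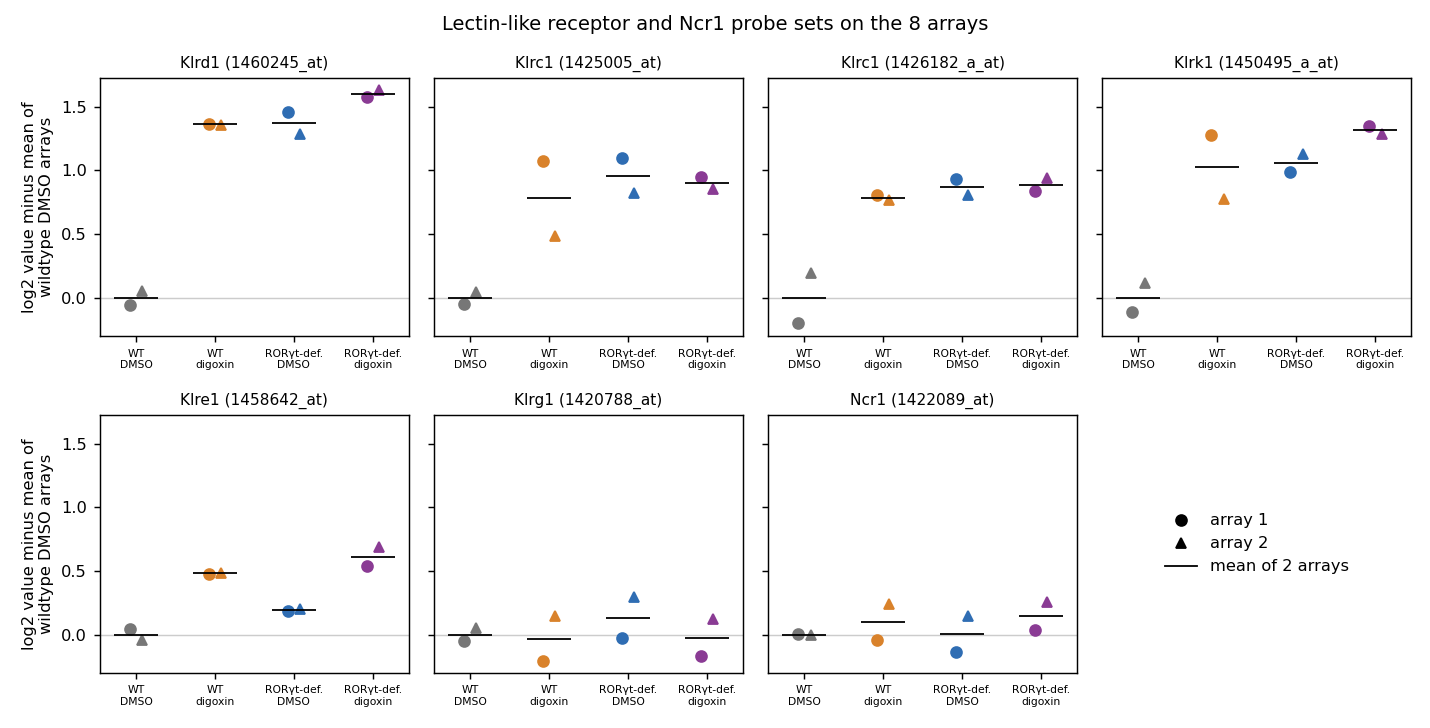
Log2 value minus the wildtype DMSO mean (vertical axis) for the 7 probe sets of the 6 measured members on the 8 arrays, with circles for array 1, triangles for array 2 and lines for group means. Klrd1, Klrk1 and both Klrc1 probe sets lie above wildtype DMSO on all 6 other arrays, Klre1 follows digoxin, and Klrg1 and Ncr1 stay near 0.

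In all, 4 of the 6 measured members had all 6 other arrays above both wildtype DMSO arrays, as had 7.99% of all genes. Limma called 3 members higher for RORγt deficiency in DMSO (Klrd1, Klrk1 and Klrc1), where 0.28% of all genes were called higher, and 1 (Klrd1) higher for digoxin in wildtype cells, where 0.0715% were. A call means an adjusted p under 0.05 after Benjamini-Hochberg adjustment over all 18193 genes. These comparisons chose the members, so nothing is read from the counts. Leaving out 1 array at a time gave Klrd1 differences of 1.29 to 1.46 for the deficiency and 1.31 to 1.42 for digoxin. Klrk1 then ran from 0.94 to 1.17 and from 0.77 to 1.28, and Klrc1 from 0.82 to 1.10 and from 0.48 to 1.08. The deficiency calls of Klrk1 and Klrc1 were lost without any 1 array of the compared groups, where fewer of all genes were called too. After quantile normalisation of the centred values the count was 0 in both comparisons. There 3 and 4 of all genes were called, against 191 and 22 without it.

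The RORγt-deficient digoxin arrays took no part in those comparisons and were set against wildtype DMSO, whose arrays are shared with them. Because the choice used these wildtype DMSO arrays, the adjusted p-values below are not an independent test of the members. Whether the RORγt-deficient digoxin arrays also bore on the choice is not known. Klrd1 rose 3.04-fold (log2 difference 1.60 ± 0.11, limma adjusted p = 0.000107), Klrk1 2.49-fold (1.32 ± 0.16, adjusted p = 0.00496), Klrc1 1.87-fold (0.90 ± 0.18, adjusted p = 0.042) and Klre1 1.53-fold (0.61 ± 0.10, adjusted p = 0.021). Klrg1 (-0.02 ± 0.16) and Ncr1 (0.14 ± 0.14) were not called. The other Klrc1 probe set stood at 0.89 ± 0.14 and was also called when every probe set was tested (limma adjusted p = 0.017). Of the 6 measured members, 4 were called higher, and 0.528% of all genes were. The members were chosen for standing above these same wildtype DMSO arrays, which favours higher values here too, so that share is not the one to be met by members without a change. Klrd1 kept its call under all 16 alternative settings, with limma adjusted p up to 0.0298. The count of 4 fell when an array of wildtype DMSO or RORγt-deficient digoxin was left out, and it was 1 after quantile normalisation. Over the fits without 1 array, Klrk1 ran from 1.20 to 1.43, Klrc1 from 0.855 to 0.95 and Klre1 from 0.53 to 0.69.

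Digoxin in RORγt-deficient cells asks whether the drug moved the members in cells that are deficient in RORγt. Klrd1 stood at 0.23 ± 0.11 (95% interval -0.01 to 0.47), Klrk1 at 0.26 ± 0.16 (-0.10 to 0.62) and Klrc1 at -0.06 ± 0.18 (-0.46 to 0.34). Klre1 had the largest difference of the members, 0.42 ± 0.10 (0.19 to 0.65), and ranked 20th among all genes by p. Klrg1 stood at -0.16 ± 0.16 and Ncr1 at 0.14 ± 0.14. Limma called 0 members (adjusted p = 1.0 for each), and 0.0055% of all genes in either direction. At an unadjusted p under 0.05 there was 1 member, Klre1, against 3.51% of all genes. The RORγt-deficient DMSO arrays also entered a comparison that chose the members, and choosing genes that stood high there pulls this difference down.

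RORγt deficiency under digoxin was the matching comparison of genotypes in the presence of the drug. Klrd1 stood at 0.24 ± 0.11 (95% interval 0.002 to 0.48), Klrk1 at 0.29 ± 0.16 (-0.07 to 0.65) and Klrc1 at 0.12 ± 0.18 (-0.28 to 0.52). Klre1 was at 0.13 ± 0.10, Klrg1 at 0.01 ± 0.16 and Ncr1 at 0.05 ± 0.14. Again limma called 0 members, with adjusted p of 0.90 for Klrd1 and from 0.96 to 1.0 for the others, and 0.0055% of all genes. At an unadjusted p under 0.05 there was 1 member, Klrd1, and 5.51% of all genes. Choosing genes that stood high on the wildtype digoxin arrays pulls this difference down as well. A p that misses the threshold does not show that the groups are alike, and the intervals reach up to 0.65 in either comparison.

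The difference between the digoxin effects, RORγt-deficient minus wildtype, compares the response to the drug between the genotypes. The members were chosen for high values in wildtype digoxin and RORγt-deficient DMSO and low ones in wildtype DMSO, all of which push this difference below 0, so it is given as a description. It was -1.13 ± 0.15 for Klrd1, -0.84 ± 0.25 for Klrc1 and -0.77 ± 0.23 for Klrk1, and -0.06 ± 0.15 for Klre1. Limma called 0 members and 0 genes in all (0%), while 3 members (Klrd1, Klrc1 and Klrk1) and 3.09% of all genes had an unadjusted p under 0.05, from which nothing is read for the members.

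**Figure D2:**
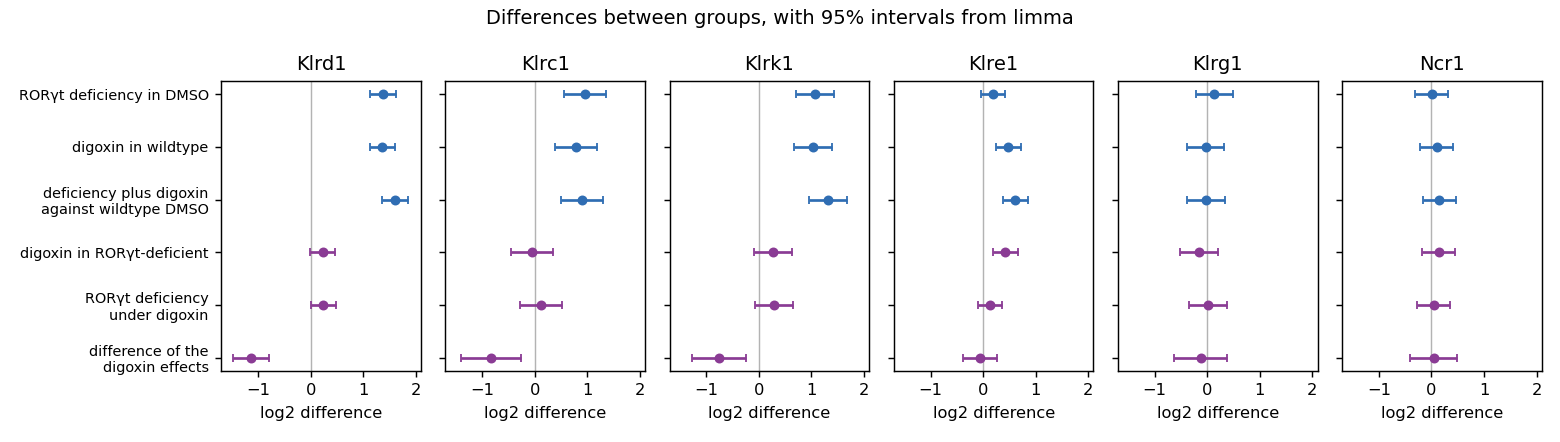
Log2 difference (horizontal axis) of each measured member in the 6 comparisons, with points for limma estimates and bars for 95% intervals. Blue rows are set against wildtype DMSO, with Klrd1 from 1.36 to 1.60. Purple rows are the other comparisons, in which the Klrd1 difference of the digoxin effects stands at -1.13.

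Other lectin-like receptors of the NK gene complex were not called. Of 35 listed genes of this and related families, 20 were measured, and limma called 0 of them in each of the 6 comparisons, with 0 to 5 at an unadjusted p under 0.05. For deficiency plus digoxin against wildtype DMSO their median was 0.08, against 0.03 for all genes, and 5 of the 20 had an unadjusted p under 0.05, as had 15% of all genes. Klrc2 and Klrc3, the activating relatives of Klrc1 that lie between it and Klrk1, stood at 0.09 ± 0.12 and 0.06 ± 0.10, with lowest levels between 2 and 4. Klra8, which encodes the NK receptor Ly49H, stood at 0.32 ± 0.13. Whether the Klrc1 probes also bind transcripts of these close relatives was not tested.

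In a stretch of 53 protein-coding genes around the complex, the 4 measured members of the complex lay within 6 consecutive genes. In the same stretch 28 other measured genes (clone and locus numbers left out) had differences from -0.32 to 0.59 for deficiency plus digoxin. Limma called 0 of these 28, while 8 had an unadjusted p under 0.05, as had 15% of all genes. The 2 largest differences among the 28, named after their values were seen, were Clec2i (0.59 ± 0.22) and Clec2d (0.53 ± 0.20), which encode ligands of NKR-P1 receptors.

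**Figure D3:**
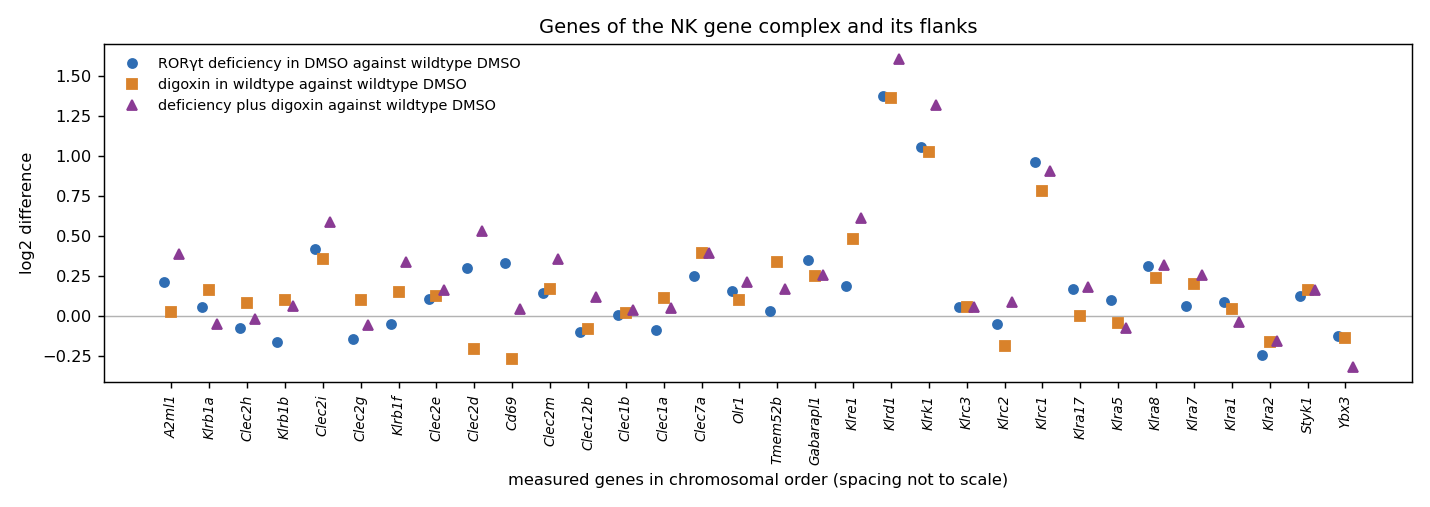
Log2 difference from wildtype DMSO (vertical axis) of measured genes of the NK gene complex and its flanks, in chromosomal order with spacing not to scale. Circles are RORγt deficiency in DMSO, squares digoxin in wildtype cells and triangles both together. Klrd1, Klrk1 and Klrc1 stand above their neighbours, and Klrc3 and Klrc2, which lie between Klrk1 and Klrc1, stay near 0.

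Adaptors and ligands of the receptors were measured for the same arrays. Limma called 0 of 18 measured adaptor and signalling genes in every comparison, with 0 to 3 at an unadjusted p under 0.05. For deficiency plus digoxin their median was 0.09, and 3 had an unadjusted p under 0.05, as had 15% of all genes. Hcst, which encodes DAP10, stood at 0.27 ± 0.10, with its lowest level at 8 or above. Tyrobp, which encodes DAP12, stood at 0.28 ± 0.14, with its lowest level between 2 and 4. Of 18 listed ligand genes 10 were measured and 0 called, with a median of 0.19 for deficiency plus digoxin. Of these 10, 3 had an unadjusted p under 0.05, against 15% of all genes. The gene of Qa-1 was not among these 10. H60c stood at 0.19 ± 0.11, Ulbp1 at -0.25 ± 0.15 and the classical MHC gene H2-D1 at -0.57 ± 0.13 (limma adjusted p = 0.066 for H2-D1).

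Some other receptors shared by NK cells and activated T cells were called. Cd96, an adhesion receptor of T and NK cells, rose by 0.62 ± 0.12 in RORγt deficiency in DMSO and by 0.92 ± 0.12 in deficiency plus digoxin (limma adjusted p = 0.0402 and 0.00561). Slamf7, an activating receptor of the SLAM family, rose by 0.66 ± 0.13 and 0.71 ± 0.13 in the same comparisons (adjusted p = 0.0419 and 0.025). These were 2 of 16 measured genes of the list, called in both, where 0.28% and 0.528% of all genes were called higher. The list was written with earlier results of these data known, so nothing is read from that count. The list medians were 0.19 and 0.28. In deficiency plus digoxin Cd96 lost its call under 3 of the 16 alternatives and Slamf7 under 5, and in the deficiency alone under 8 and 12, each time with an array left out among them. For digoxin in wildtype cells 0 of the 16 were called by limma, 4 had an unadjusted p under 0.05 (6.99% of all genes), and Cd96 and Slamf7 stood at 0.40 ± 0.12 and 0.40 ± 0.13.

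The cytotoxic list held granule genes and some chemokine genes, and its median for deficiency plus digoxin was 0.29 against 0.03 for all genes. Of its 16 measured genes 4 rose, where 0.528% of all genes were called higher. They were Nkg7, a granule membrane protein (1.53 ± 0.11), Gzmb, granzyme B (1.29 ± 0.11), Ctsw, cathepsin W (0.78 ± 0.11), and Ccl4, a chemokine (0.55 ± 0.11). Their limma adjusted p ran from 0.000141 to 0.043. Nkg7 and Gzmb kept these calls under all 16 alternatives. Ctsw lost its call under 5 and Ccl4 under 8, among them those without either wildtype DMSO or either RORγt-deficient digoxin array. Nkg7 and Gzmb were also called higher for the deficiency in DMSO and for digoxin in wildtype cells (0.28% and 0.0715% of all genes). Their digoxin calls were lost under 8 alternatives each, and the deficiency call under 0 for Nkg7 and 2 for Gzmb. Gzma, granzyme A, stood at 0.58 and Prf1, perforin, at 0.43, neither called. The chemokine gene Ccl5 went the other way, at -0.27 ± 0.11, and was not called, and 11 of the 16 stood above 0. This list too was written with earlier results of these data known, so nothing is read from the count called.

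Of 13 measured cytokine receptor genes, Il12rb2, a subunit of the IL-12 receptor, was the one called. It rose by 0.72 ± 0.13 in the deficiency in DMSO and by 0.77 ± 0.13 with digoxin added (limma adjusted p = 0.0293 and 0.0183). In these comparisons 0.28% and 0.528% of all genes were called higher. The list of 23 measured transcription factors was broad, from Tbx21 and Eomes to Gata3, Bach2 and Stat5a. Of these, Tbx21, which encodes T-bet, was called in deficiency plus digoxin (0.49 ± 0.10, limma adjusted p = 0.0444) and in none of the other 5 comparisons. Tbx21 lost this call under 11 of the 16 alternatives, among them all 8 that left out an array, and Il12rb2 lost its own under 5 in deficiency plus digoxin and 6 in the deficiency alone. Eomes, the relative of Tbx21 in NK and CD8 T cells, stood at 0.12 ± 0.13 in deficiency plus digoxin, with its lowest level between 2 and 4. For the deficiency in DMSO Eomes stood at 0.24 ± 0.13 and Tbx21 at 0.32 ± 0.10. For digoxin in wildtype cells they stood at 0.405 ± 0.13 and 0.35 ± 0.10, and neither was called in these comparisons. The medians for deficiency plus digoxin were 0.04 for the cytokine receptors and 0.03 for the factors, against 0.03 for all genes. Both lists were written with earlier results of these data known, so nothing is read from the counts called.

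Markers of other cell types were read on the same arrays. Among 8 measured NK markers 5 (Ncr1, Klra8, Klra7, Eomes and Tyrobp) had their lowest level between 2 and 4, and Klre1 was the 1 called, in deficiency plus digoxin. Without the members Klre1 and Ncr1, the mean log2 value over the 6 remaining NK markers was -0.06 and 0.06 on the wildtype DMSO arrays. It ran from 0.18 to 0.20 in RORγt-deficient DMSO, 0.14 to 0.32 in wildtype digoxin and 0.26 to 0.35 in RORγt-deficient digoxin. The mean over 7 CD4 T cell markers ran from -0.04 to 0.04, from 0.22 to 0.26, from 0.17 to 0.18 and from 0.23 to 0.29 in the same groups. Cd8a and Cd8b1, which define CD8 T cells, averaged 0.21 to 0.24 in RORγt-deficient DMSO, 0.05 to 0.07 in wildtype digoxin and 0.07 to 0.21 in RORγt-deficient digoxin, and neither was called. The medians for deficiency plus digoxin were 0.28 over 3 B cell markers, 0.31 over 4 myeloid markers and 0.12 over 2 gamma delta T cell markers. The NKT factor gene Zbtb16 stood at 0.24. Limma called 0 of these B cell, myeloid, gamma delta T cell and NKT markers. In deficiency plus digoxin, 1 of 3 B cell markers, 2 of 4 myeloid markers, 0 of 2 gamma delta T cell markers and Zbtb16 had an unadjusted p under 0.05. The share of all genes was 15%. The part of such cells in the member values was not tested.

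**Figure D4:**
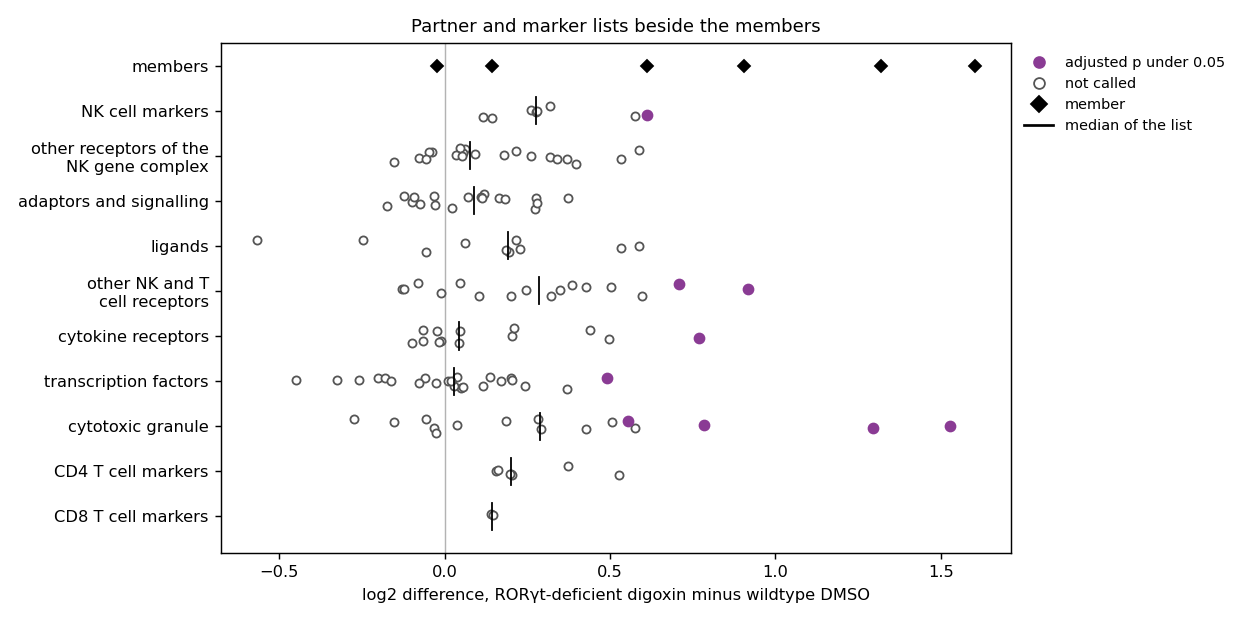
Log2 difference of RORγt-deficient digoxin from wildtype DMSO (horizontal axis) for the 6 measured members (diamonds) and the genes of 10 lists (circles, filled where limma's adjusted p was under 0.05), with bars for list medians. The cytotoxic granule list, which also holds chemokine genes, has 4 filled points up to 1.53, and the list of other receptors of the NK gene complex holds none.

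The genes most like a member were those with the smallest root mean square difference from it over the 8 arrays, each gene first centred on its own mean. For Klrd1 these were, in order, Il10, Ifitm1, Klrk1, Gzmb, Stom, Nkg7, Gbp2 and Cd86, at distances from 0.13 to 0.27 on the log2 scale. Il10, the gene of an immunoregulatory cytokine, was nearest, with differences from wildtype DMSO of 1.45 for the deficiency, 1.33 for digoxin and 1.43 for both. Ifitm1, an interferon-induced membrane protein gene, stood at 0.96, 1.17 and 1.16 in the same comparisons.

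For Klrk1 the nearest genes were Gzmb, Bst1, Ifitm1 and Gbp2, at 0.15 to 0.19, and for Klrc1 they were Gbp8, Gsn, Cd86 and Ecm1, at 0.10 to 0.18. Gbp2 and Gbp8 encode interferon-inducible GTPases. Gbp8 stood at 0.85 and 0.27 in wildtype digoxin, and its arrays there were far apart, as were those of Klrc1 in its first probe set. Among the members themselves, Klrk1 ranked 3rd and Klrc1 17th of all genes by distance from Klrd1, Klre1 114th, and Ncr1 and Klrg1 6043rd and 10642nd. By distance from Klrk1, Klrc1 ranked 6th and Klrd1 11th. By distance from Klrc1, Klrk1 ranked 10th, Klrd1 272nd and Klre1 553rd. The members were chosen with their values on these same arrays known, which favours such closeness, so nothing is read from the ranks.

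**Figure D5:**
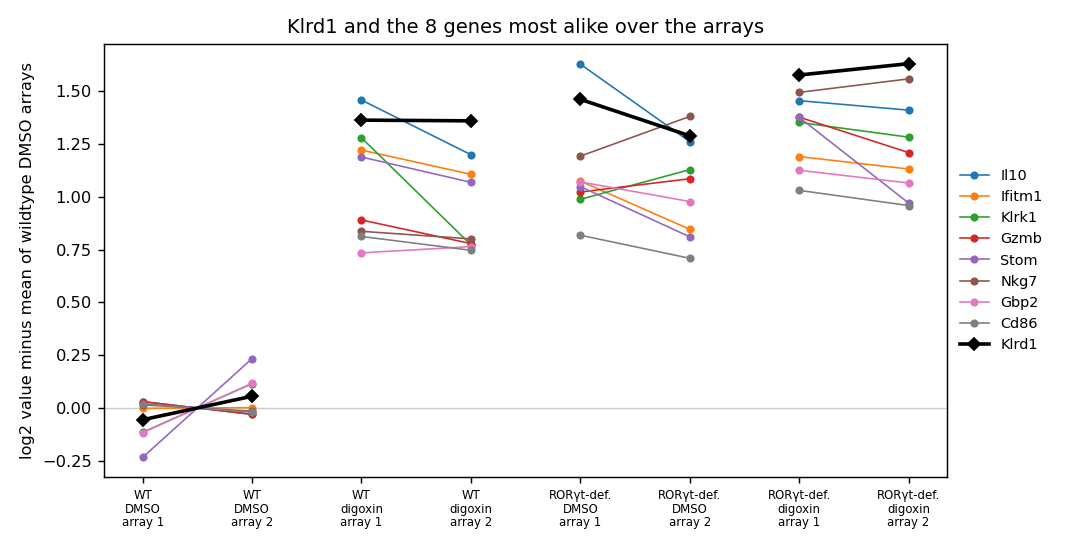
Log2 value minus the wildtype DMSO mean (vertical axis) of Klrd1 (black diamonds) and the 8 genes most like it, on the 8 arrays, with lines joining the arrays of a group. All 9 genes lie from -0.23 to 0.23 in wildtype DMSO and at 0.71 or above on the 6 other arrays.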

How the data were processed

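Per the submitters' processing notes, intensities were summarised with RMA, and the log2 values deposited by the authors cover 45101 probe sets on 8 arrays. Every probe set has wildtype DMSO values that add to 0 (tolerance 1e-06), which makes all values differences from that group's mean. No label mentions this centring, which leaves comparisons of groups as they were. The lowest level of a probe set was read, as a range, from the smallest binary step among its deposited numbers, which was right for 97.9% of 2000 simulated probe sets. The platform annotation gave 34958 probe sets with 1 symbol; 34945 remained without controls, of which 34741 matched the GRCm38.p6 RefSeq table, used for symbols and gene order. For 9010 genes with several probe sets, 1 was taken by suffix and identifier.

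All 18193 genes were fitted on all 8 arrays with limma 3.58.1 in R 4.3.3 (4 group means, eBayes, 4 residual and 5.8 prior degrees of freedom), tests two-sided, with Benjamini-Hochberg adjustment within a comparison. Values after ± are limma standard errors. No filter on low values was used. The steps were tested on simulated data. Genotypes rest on the labels, since RORγt's own gene is not reported here. Array medians lay between -0.01 and 0.03. The number of arrays limits the precision.

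All members, lists and motifs were chosen with earlier results of these data known. Named genes were the members, the 8, 4 and 4 genes nearest to Klrd1, Klrk1 and Klrc1 (clone and locus numbers left out), and from each list up to 4 called genes and up to 4 defining genes. Alternatives left out each array, blocked on replicate number, fitted only the compared groups, weighted arrays, normalised by quantiles, averaged or tested all probe sets, kept genes with a lowest level of 4 or more, or moderated robustly.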

Additional observations from a re-analysis of the deposited data

How the results depend on the processing

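Under 16 alternatives, 534 of 570 member values kept their direction and their side of the threshold, or changed sign while moving by less than 1 standard error, 28 lost a call, 3 gained one, 5 uncalled values (4 of Klrg1, 1 of Klrc1) changed sign while moving by more, and 0 called values reversed. Leaving out 1 array at a time changed the number of called members in the 3 comparisons with wildtype DMSO and not in the other 3. The Klrd1 difference then ran from 1.29 to 1.46 for RORγt deficiency in DMSO and 1.31 to 1.42 for digoxin in wildtype cells. For deficiency plus digoxin it ran from 1.55 to 1.66. Quantile normalisation gave 0, 0 and 1 called members for the deficiency, digoxin in wildtype cells and deficiency plus digoxin. Centring on the wildtype DMSO mean leaves those arrays narrow (SD 0.0911, against 0.172 to 0.279 on the others). Quantile normalisation widens them, so the loss of calls under it cannot be read as a property of the members. For digoxin in wildtype cells, array weights gave 2 and the mean over probe sets 2. The replicate block gave 3 called members for the deficiency, 1 for digoxin in wildtype cells, 4 for deficiency plus digoxin and 0 in the others, and among the other called genes named here it ended 1 call, that of Slamf7 for the deficiency in DMSO. The numbers were not taken to pair the arrays, since this held for some groups only: differences between arrays 1 and 2 correlated across genes at -0.24 to -0.14 between wildtype DMSO and the other groups and at 0.33 to 0.45 among those. Ncr1 had no value with genes of a lowest level of 4 or more.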
